A study of Mus musculus and Rattus norvegicus with 2 samples.

Results

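Fragments of mRNAs of 10 genes active in spermatids, the haploid cells that reshape into sperm, were followed in small RNA from mature mouse sperm. The genes were Prm1, Prm2, Tnp2, Odf1, Odf2, Smcp, Oaz3, Spem2, Ybx2 and Gapdhs. Of these, Odf2 and Ybx2 also act in other cells. A read was counted for a gene when its deposited annotation was of the mRNA type and its whole sequence occurred, without mismatch and in the sense direction, in a spliced transcript of that gene and of no other gene (GENCODE M21, GRCm38). By this rule the 10 genes held 620 reads of 442 distinct sequences, of 62294 reads annotated as mRNA and 691381 reads listed for the mouse. The study made 1 library per species from sperm of the cauda epididymis, where mature sperm are stored. Mice were C57BL/6 and 2 months old. Rats were Sprague Dawley and weighed 450 g. The sources used here do not say how many animals each library pooled. RNA of 18 to 45 nt was sequenced on an Illumina GAIIx after extraction with Trizol. With 1 library per species no difference could be tested, and the intervals given are 95% intervals of counting error only, exact Poisson for counts and exact Clopper-Pearson for shares. PCR copies of a fragment are not independent molecules, so the true error is wider.

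Spermatids transcribe many of these genes well before the proteins are made, and store the mRNA in particles with RNA-binding proteins until elongation. During elongation, histones are replaced first by transition proteins and then by protamines, and transcription stops as the chromatin condenses. Most cytoplasm is shed at the end of this process, so RNA of these genes in mature sperm is generally regarded as left over from earlier stages. The members cover the chromatin change (Prm1, Prm2 and Tnp2), the flagellum and its sheaths (Odf1, Odf2, Smcp), the energy supply of the tail (Gapdhs), the storage of mRNA (Ybx2), polyamine control (Oaz3), and Spem2, which is named for spermatid maturation.

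Most reads of Spem2 stood apart from those of the other 9 genes. Of its 130 reads, 121 of 16 sequences lay within nt 5 to 40 of the transcript, a G-rich stretch of the 5′ untranslated region (UTR). These reads were of 18 to 23 nt, 65.8% of their bases were G and none was A, and none had a deposited match without mismatch. Their deposited entries numbered 14, and of the 10 sequences whose entry carries a gene symbol, 0 named Spem2. With 1 mismatch allowed, only 7 of the 16 sequences, with 52 reads, still matched no other gene, and the others lay within 1 mismatch of 4 other genes. Without this stretch the 10 genes held 499 reads of 426 sequences. For the other 9 genes, 412 of 417 sequences stayed unique with 1 mismatch allowed, all 490 reads had a deposited match without mismatch, and each of the 179 sequences whose entry carries a symbol named the same gene. Values over all 10 genes are therefore given with those of the 9 genes beside them. A further 24 reads of 4 sequences matched Spem2 and Retreg3 alike and were left out, as was 1 Oaz3 read found only in a transcript that keeps an intron.

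The 620 reads were 0.995% of the reads annotated as mRNA (interval 0.919 to 1.08) and 3.46% of the 17939 reads that were unique to 1 protein-coding gene (3.19 to 3.73). The 490 reads of the 9 genes were 0.787% and 2.73% of the same totals. Of the reads annotated as mRNA, 37.2% had an exact sense match to any mouse transcript, and 28.8% were unique to 1 coding gene. Reads were thinly spread, with 5948 of 21951 coding genes having at least 1 unique read and 237 at least 10. All 10 spermatid genes had at least 10. Counted over all coding genes, 6 of the 10 were among the 25 genes with the most reads, Spem2 included, and 5, without Spem2, among the 25 with the most distinct sequences. No coding gene had more distinct sequences than Prm2. The genes were chosen with earlier results of these data known, so their high ranks in the same library are no independent result. Nearly all reads ran in the sense direction: 620 of 622 reads of the 10 genes were sense (99.7%, 98.8 to 99.96), as were 99.6% of the reads of the 9 genes (98.5 to 99.95), against 95.2% of the reads of the other coding genes (94.9 to 95.5). The 2 antisense reads both matched Odf2.

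Most fragments were seen once. Of the 442 sequences, 381 (86.2%) had 1 read and 17 had at least 3 reads. For the 9 genes 87.8% had 1 read (84.2 to 90.8), whereas 91.5% of the sequences of the other coding genes had 1 read. Some of the fragments ran across exon junctions of the spliced transcript, with at least 1 base on each side. Of the 456 placed reads of the 9 genes, 22 did so (4.82%, 3.05 to 7.21), beside 4.51% for the other coding genes (4.19 to 4.84). Examples from the coding sequence of 6 genes are shown 5′ to 3′, with the downstream exon in capitals, because they join neighbouring exons. Their parts in the upstream exon are short. No genome sequence was searched, so a match of these reads to unspliced RNA or elsewhere in the genome was not tested. The coordinates run from the first to the last base and include the intron.
Prm1 (chr16:10796520-10796629, minus strand): cgaaGATGCTGCCGTCGC
Prm2 (chr16:10791609-10791743, minus strand): agagGCTGCAGAAGATCCCGAAGGAGGAGG
Odf1 (chr15:38219702-38226150, plus strand): agagagACTCAGAAGGACGAC
Odf2 (chr2:29901245-29902205, plus strand): gagGTCAAGATGCAGAAAGGTGAACGCC
Oaz3 (chr3:94436100-94436390, minus strand): aagCATCACTTACAAGGAACAGGAGGACC
Gapdhs (chr7:30732051-30732199, minus strand): aaggGAAGCTAACAGGAA
The Gapdhs sequence had 2 reads and each of the others 1 read.

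**Figure D1:**
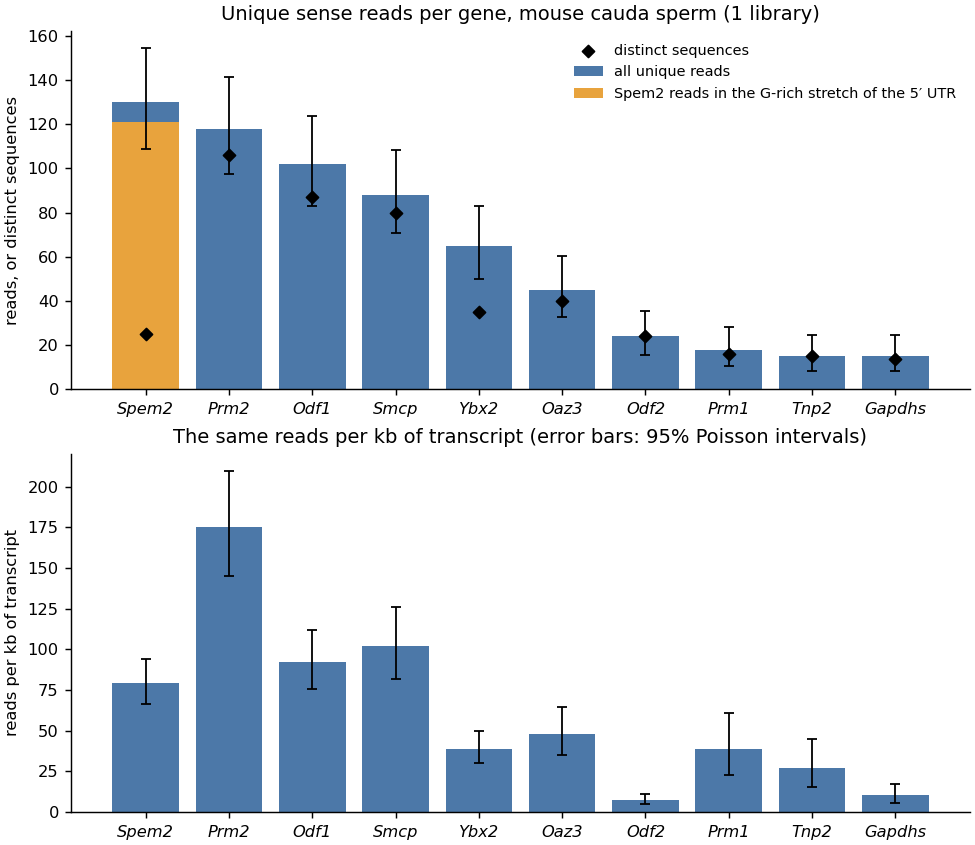
Bars show the unique sense reads of each gene in the mouse library (top, number of reads) and the same reads per kb of transcript (bottom), with 95% Poisson intervals, and diamonds show the number of distinct sequences. Spem2 had 130 reads but 25 sequences, and 121 of its reads (orange) lay in 1 stretch of its 5′ UTR, while Prm2 led per kb at 175 reads.

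Per kb of transcript, Prm2 was highest at 175 reads per kb, with an interval (145 to 210) that overlapped with none of the other genes. Smcp followed at 102 (82.0 to 126), Odf1 at 92.3 (75.3 to 112) and Spem2 at 79.3 (66.2 to 94.1), and the intervals of these 3 overlap. A lower group held Oaz3 at 48.1 (35.1 to 64.4), Ybx2 at 38.9 (29.99 to 49.5), Prm1 at 38.4 (22.7 to 60.7) and Tnp2 at 27.1 (15.2 to 44.7), again with overlapping intervals. Gapdhs, at 10.3 reads per kb (5.76 to 17.0), and Odf2, at 7.53 (4.82 to 11.2), came last, and the interval of Gapdhs overlapped with that of Tnp2. The coding sequence of Spem2 alone held 9 reads, or 5.95 per kb. The levels depend on the transcript whose length is used, here the one with the longest coding sequence, and Prm2 came to 190 per kb on its shorter transcript of 621 nt. On its most-read transcript, of 2353 nt, Odf2 came to 10.2 per kb (6.54 to 15.2), close to Gapdhs.

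The protamines and the transition protein. Protamine 2 (Prm2, 674-nt transcript at chr16:10791537-10796134, minus strand) is 1 of the small basic proteins that pack sperm DNA, and is made as a precursor that is trimmed in the spermatid. It had 118 reads (97.7 to 141) of 106 sequences, and no sequence had more than 3 reads. On the 674-nt transcript with the longest coding sequence, 78 reads lay in the coding sequence, 10 in the 5′ UTR and 0 in the short annotated 3′ UTR, and 30 reads could not be placed. The 621-nt transcript (chr16:10791380-10792105) holds all 118 reads. On it, 78 lay in the coding sequence, 13 in the 5′ UTR and 27 in the 3′ UTR. There 72.9% of the transcript was covered, by reads with 86 different 5′ ends. The depth reached 24 reads in the 3′ UTR, 457 nt after the first coding base, and 23 reads 54 nt after it. The 30 nt window of the coding sequence with the greatest mean depth, 20.3 reads, starts at coding nt 50 and is shown because 34 reads of 31 sequences overlapped it.
Prm2 window (chr16:10791920-10791949, minus strand): ctggacaagaccatgaacgcgaggagcagg
Of those reads, 9 held the whole window. In addition, 9 Prm2 reads spanned the start codon and 9 crossed an exon junction. The most used 3′ end, 225 nt after the first coding base, closed 9 reads of 7 sequences.

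Protamine 1 (Prm1, chr16:10796326-10796886, minus strand), the other packing protein, had 18 reads (10.7 to 28.4) of 16 sequences. Prm2, its neighbour on the chromosome, had 4.56 times the reads of Prm1 per kb, on the transcripts with the longest coding sequence. In Prm1 the reads leaned to the 5′ side, with 11 in the 5′ UTR, 5 in the coding sequence and 2 in the 3′ UTR, while these regions are 155, 156 and 158 nt long. The depth peaked at 9 reads at nt 115, shortly before the start codon, and 3 reads spanned the start codon. Its most abundant sequences, 46 nt from nt 115 to 160 and 25 nt from nt 95 to 119, had 2 reads each. Transition protein 2 (Tnp2, chr16:10787936-10788660, minus strand), which occupies the DNA between histones and protamines, had 15 reads (8.40 to 24.7), each a different sequence. Of these, 9 lay in the coding sequence, 5 in the 5′ UTR and 1 in the 3′ UTR, and none began with T.

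The outer dense fibres and the mitochondrial sheath. Odf1 (chr15:38219203-38226735, plus strand) encodes a cysteine-rich protein of the outer dense fibres, the stiff rods along the axoneme of the tail. It had 102 reads (83.2 to 124) of 87 sequences, with 96 reads in the coding sequence, 2 in the 5′ UTR and 4 in the 3′ UTR. The coding sequence held 94.1% of the reads and makes up 67.6% of the transcript. Reads covered 69.5% of the transcript, and the depth rose and fell along the coding sequence, with 15 reads at 59 nt after the first coding base, 13 at 304, 13 at 514 and 13 at 591. The deepest 30 nt window of the coding sequence (mean depth 12.7, 16 overlapping reads) and the 2 sequences of up to 30 nt that had 2 reads are shown as the places where the fragments repeat.
Odf1 window (chr15:38219470-38219499, plus strand): acataaagaaggtggacagagaattaagac
Odf1 first sequence (chr15:38219477-38219499, plus strand): gaaggtggacagagaattaagac
Odf1 other sequence (chr15:38219667-38219686, plus strand): aagctgtactgccttcgccc
The longer of these sequences ends at the last base of the window. The most abundant Odf1 sequence, 45 nt from nt 742 to 786 in the coding sequence, had 3 reads.

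Odf2 (chr2:29890156-29931095, plus strand) encodes the other main protein of these fibres and also serves at the centriole of other cells. It had 24 reads (15.4 to 35.7), all different sequences. Odf1 had 12.3 times the reads of Odf2 per kb, on the transcripts with the longest coding sequence. On the 3188-nt transcript, 15 Odf2 reads lay in the coding sequence, 4 in the 5′ UTR and 1 in the 3′ UTR, and 4 could not be placed. The reads were scattered, with a depth of at most 3 and 16.8% of the transcript covered, and none began with T. One Odf2 sequence, of 61 nt, was the longest fragment of the 10 genes.

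Smcp (chr3:92583867-92588997, minus strand) encodes a cysteine-rich protein of the capsule around the mitochondria of the midpiece. It had 88 reads (70.6 to 108) of 80 sequences, of which 46 lay in the 5′ UTR, 34 in the coding sequence and 8 in the 3′ UTR. The 5′ UTR held 52.3% of the reads and makes up 21.95% of the transcript. Within it, 30 reads began at nt 80 to 120, and the depth reached 32 reads at nt 109. The most used 5′ end, nt 105, opened 8 reads of 5 sequences, among them the most abundant Smcp sequence, of 36 nt with 4 reads. Coverage was nonetheless the widest of the 10 genes, at 77.9% of the transcript, and 5 reads spanned the start codon and 3 the stop codon. The deepest 30 nt window of the coding sequence, shown for contrast with the 5′ UTR, had a mean depth of 6.6 and 10 overlapping reads.
Smcp window (chr3:92584176-92584205, minus strand): tctgatacatctggccaaactctggagaag

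Polyamine control, mRNA storage and glycolysis. Oaz3 (chr3:94433387-94436637, minus strand) encodes the testis form of antizyme, a protein that holds ornithine decarboxylase, and with it polyamine synthesis, in check. It had 45 reads (32.8 to 60.2) of 40 sequences, with 35 in the coding sequence, 3 in the 5′ UTR and 7 in the 3′ UTR, which nearly matched the share of each region in the length (77.8% of reads and 78.3% of length in the coding sequence). Oaz3 was the only one of the 10 genes whose 3′ UTR held a larger share of the reads (15.6%) than of the length (12.8%), on the transcripts with the longest coding sequence. The depth reached 11 reads at nt 271, in the coding sequence, and 8 reads 717 nt after the first coding base. The 2 Oaz3 sequences of up to 30 nt with 2 reads lay at these maxima and are shown for that reason.
Oaz3 first sequence (chr3:94436085-94436114, minus strand): aggaacaggaggacctgactctccggcccc
Oaz3 other sequence (chr3:94433510-94433533, minus strand): agggaccttggccaccctggccag

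Ybx2 (chr11:69935796-69941605, plus strand) encodes the germ-cell Y-box protein (MSY2) that binds stored mRNAs in oocytes and spermatids. It had 65 reads (50.2 to 82.8) of 35 sequences, with 38 in the coding sequence, 24 in the 5′ UTR and 3 in the 3′ UTR. The reads were stacked at few places, and 19.5% of the transcript was covered. In the coding sequence, 32 of the 38 reads ended at the same base, nt 627, which lies in exon 4 and 14 nt before its end. These 32 reads were of 11 sequences with 11 different 5′ ends, from nt 583 to 606, and were 22 to 45 nt long. The 4 shortest of them are shown, with the 22 nt that all 11 share in capitals.
Ybx2, 14 reads (chr11:69939289-69939313, plus strand): gggGAGACTGTGGAGTTTGATGTCG
Ybx2, 1 read (chr11:69939290-69939313, plus strand): ggGAGACTGTGGAGTTTGATGTCG
Ybx2, 1 read (chr11:69939291-69939313, plus strand): gGAGACTGTGGAGTTTGATGTCG
Ybx2, 1 read (chr11:69939292-69939313, plus strand): GAGACTGTGGAGTTTGATGTCG
The next most abundant sequence ended at the same base and was 31 nt long, with 5 reads. In the 5′ UTR of Ybx2, 17 reads of 11 sequences began at nt 109 to 135 and 6 reads at nt 42. The median length of the Ybx2 reads was 25 nt, and 50.6% of their bases were G, against 31.6% of the transcript. With 1 mismatch allowed, 32 of the 35 sequences still matched no other gene.

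Gapdhs (chr7:30729780-30743681, minus strand) encodes the sperm form of glyceraldehyde-3-phosphate dehydrogenase, a glycolytic enzyme bound to the fibrous sheath of the tail. It had 15 reads (8.40 to 24.7) of 14 sequences, with 14 in the coding sequence and 1 in the 3′ UTR. The depth did not exceed 4 reads and 20.9% of the transcript was covered, mostly in the later part of the coding sequence. Of its 15 reads, 4 crossed exon junctions, among them the 2 reads of the sequence shown above.

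Spem2 (chr11:69816566-69818465, minus strand) belongs to a small gene group named after a role in spermatid maturation. Beside the 121 reads of the G-rich 5′ stretch it had 9 reads of 9 sequences in the coding sequence, between nt 336 and 1282. These were 23 to 44 nt long and each had a deposited match without mismatch, and all 9 stayed unique with 1 mismatch allowed. In the 5′ stretch, the most used 5′ end was nt 11, with 47 reads, and its most abundant sequence, of 20 nt from nt 11 to 30, had 30 reads (20.2 to 42.8).

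**Figure D2:**
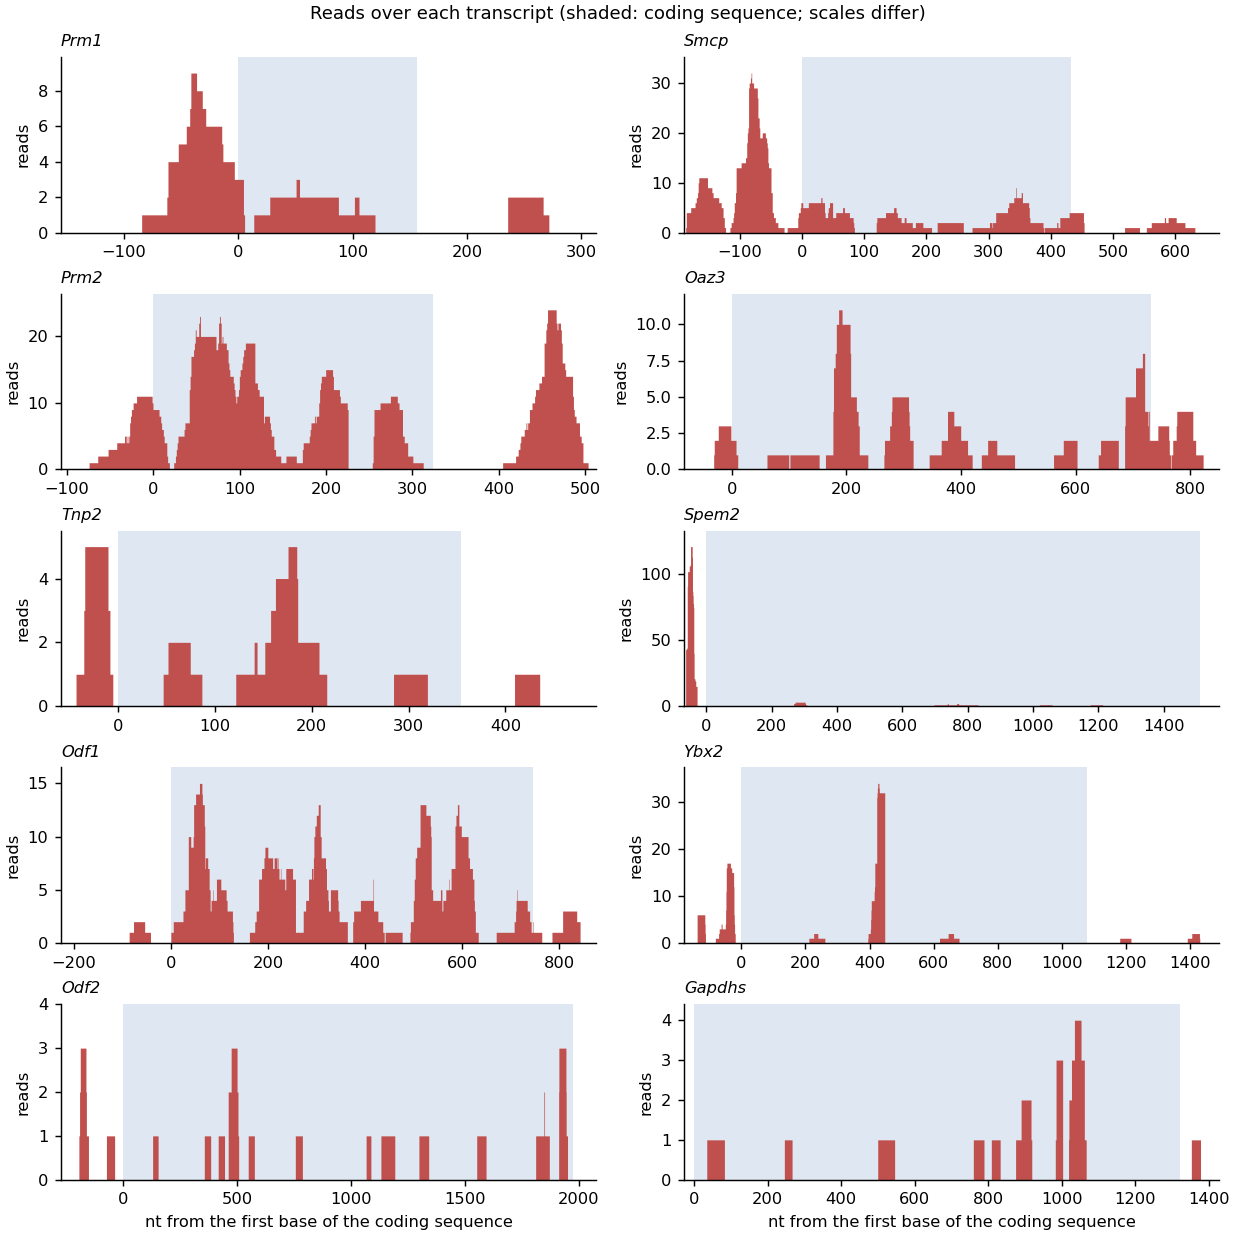
Depth of reads (vertical axis, number of reads covering a base) along the transcript with the most reads of each gene, by distance in nt from the first coding base, with the coding sequence shaded and scales that differ between panels. Prm2, Odf1 and Smcp were covered over most of their length, whereas Ybx2 and Spem2 reads were stacked at few places.

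Over the 9 genes together, 324 of 456 placed reads lay in the coding sequence (71.1%, 66.7 to 75.2), 105 in the 5′ UTR (23.0%, 19.2 to 27.2) and 27 in the 3′ UTR (5.92%, 3.94 to 8.50). In the other coding genes these shares were 64.8%, 10.6% and 24.6%. Weighted by the reads of each gene, the same regions made up 60.8%, 22.4% and 16.8% of the transcript length for the 9 genes and 58.1%, 7.47% and 34.5% for the other coding genes. Relative to its length, the 3′ UTR thus held few reads in the spermatid genes, and its share of reads lay under its share of length in 9 of the 10 genes. Pooled over the other coding genes it did so as well. These shares depend on the transcript chosen, which changes for Prm2 and Odf2 when the one with the most reads is used. On the transcripts with the most reads, 27 Prm2 reads lie in the 3′ UTR. The 3′ UTR then held 10.9% of the reads of the 9 genes (8.26 to 14.0), beside 21.9% of the length. The coding share was 66.9% (62.6 to 71.1), beside 61.3% of the length, and its interval includes the 64.8% given above for the other coding genes. The 5′ UTR share was 22.2% (18.6 to 26.1), beside 16.8% of the length. The 5′ UTR share exceeded its length share in 6 of the 10 genes, by most in Spem2, Smcp, Prm1, Ybx2 and Tnp2. It also did so pooled over the other coding genes. For Spem2, 93.1% of the reads lay in the 5′ UTR, which makes up 4.15% of its length.

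**Figure D3:**
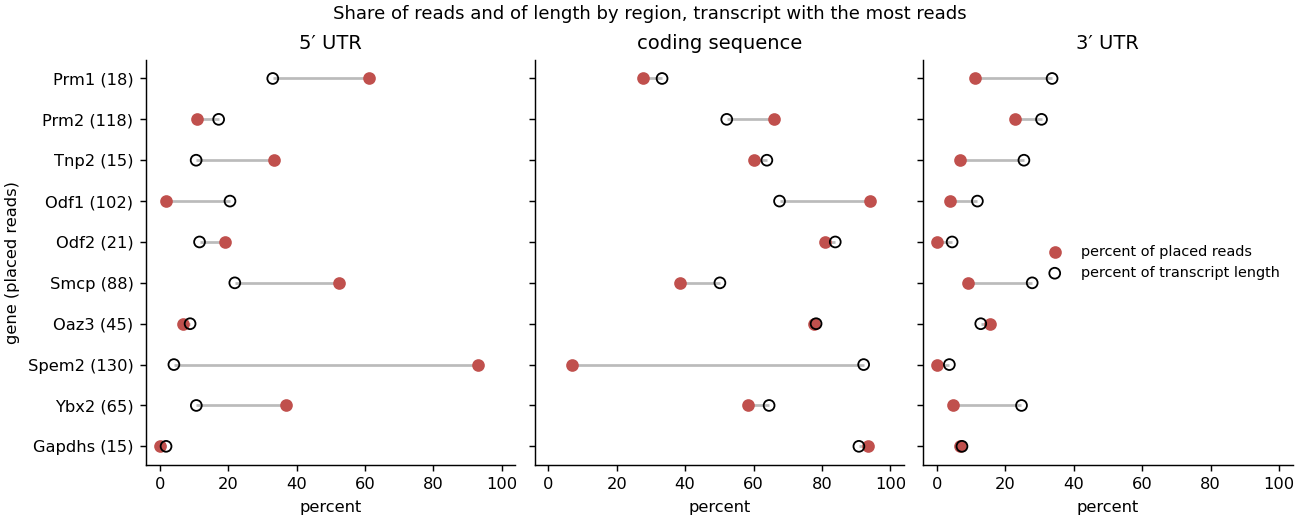
For each gene, the percent of its placed reads (filled) and the percent of the length of its most-read transcript (open) in the 5′ UTR, coding sequence and 3′ UTR, with the number of placed reads in parentheses. The 5′ UTR held a larger share of reads than of length in Prm1, Tnp2, Odf2, Smcp, Spem2 and Ybx2, and Odf1 had 94.1% of its reads in the coding sequence.

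The median length of the fragments of the 9 genes was 35 nt, as for Prm2, Odf1 and Oaz3 singly, against 33 nt for the other coding genes. Of the reads of the 9 genes, 58.0% were of 33 to 45 nt (53.4 to 62.4), 18.2% of 26 to 32 nt (14.8 to 21.9) and 19.4% of 18 to 25 nt (16.0 to 23.2). In the other coding genes the shares were 46.4% (45.6 to 47.1), 19.1% (18.6 to 19.7) and 30.2% (29.5 to 30.9). The intervals thus overlap for 26 to 32 nt, the sizes of piRNAs, and do not overlap for the other classes. The commonest length was 35 nt in both sets. Spem2 differed, with a median of 21 nt, 93.8% of its reads at 18 to 25 nt (88.2 to 97.3) and 0 of 130 at 26 to 32 nt. Over all 10 genes the median was 33 nt. Among the single genes the medians were lowest in Spem2, Ybx2 (25 nt), Gapdhs (27 nt) and Tnp2 (28 nt), and highest in Prm1 and Smcp (36 nt each). The size cut of the libraries was not sharp: 22 reads of 20 sequences of the 10 genes were over 45 nt.

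**Figure D4:**
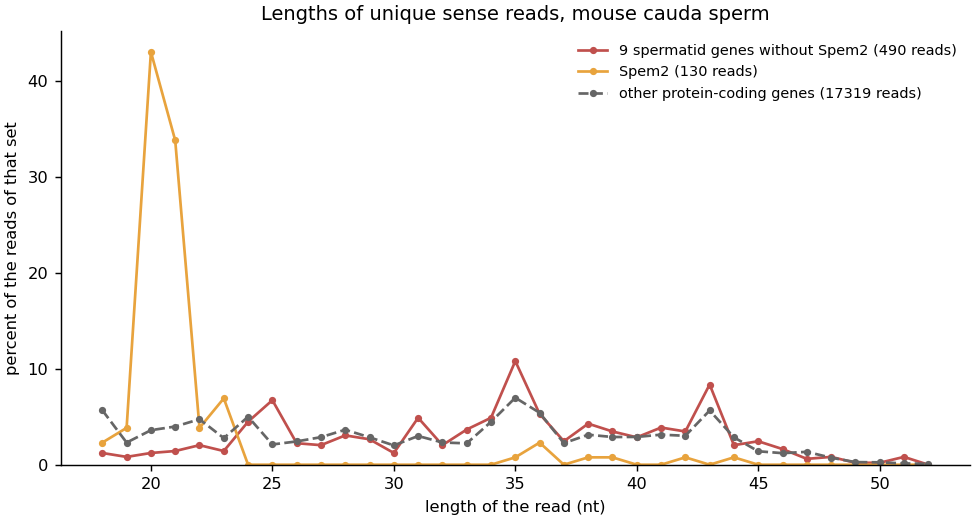
Percent of reads (vertical axis) by length in nt for the 9 genes without Spem2, Spem2 and the other coding genes. The 9 genes and the other coding genes both peak at 35 nt, while Spem2 has 93.8% of its reads at 18 to 25 nt.

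The fragments of the 9 genes seldom began with T (U in the RNA), the first base typical of piRNAs and of many miRNAs. T opened 61 of 490 reads (12.4%, 9.66 to 15.7), while T made up 20.6% of the transcripts. In the other coding genes T opened 21.8% of the reads (21.1 to 22.4) and made up 23.4% of the transcripts. The share of reads beginning with T was below the share of T in the transcript in 9 of the 10 genes, Spem2 being the exception with 51.5% (42.6 to 60.4). In Prm1, where 3 reads began with T, the gap was small (16.7% against 17.3%). No such count over the other coding genes is given here, for T or for A. A opened 33.7% of the reads of the 9 genes (29.5 to 38.0), above its 25.1% of the transcripts, and 30.9% in the other coding genes, above 24.7%. By gene, A led in Prm2 (36.4%, with C at 35.6%), Odf1 (44.1%), Odf2 (41.7%), Oaz3 (48.9%) and Gapdhs (46.7%). G led in Tnp2 (53.3%) and Ybx2 (47.7%), and C in Smcp (39.8%) and Prm1 (33.3%). Gapdhs and Tnp2 had only 15 reads each. The share of A lay above its transcript share in 6 of the 10 genes. The last base of the placed reads was C in 42.1% of the 9 genes' reads (37.5 to 46.8) and in 43.3% of those of the other coding genes (42.6 to 44.1).

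**Figure D5:**
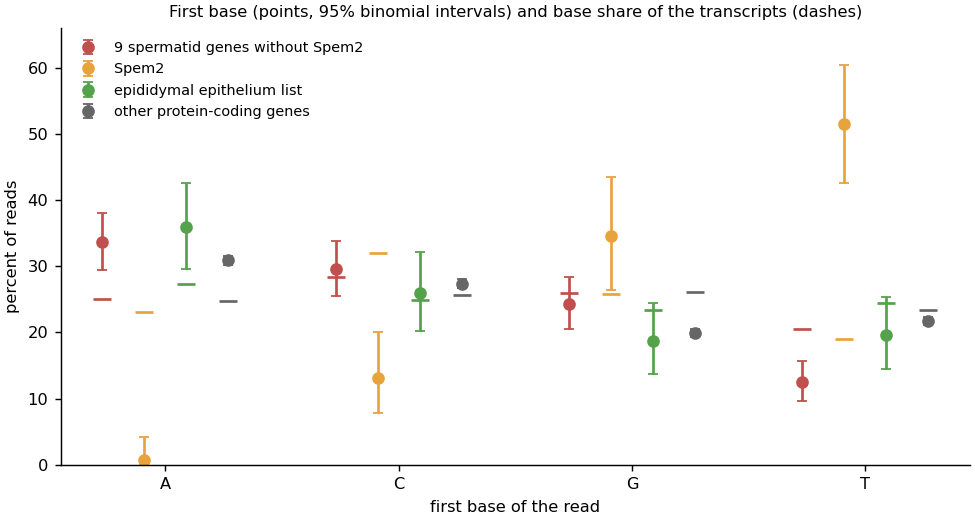
Percent of reads beginning with each base (points, 95% Clopper-Pearson intervals) and percent of that base in the transcripts, weighted by reads (dashes), in 4 sets of genes. The 9 spermatid genes without Spem2 began with T in 12.4% of reads, below the 20.6% of T in their transcripts.

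In the coding sequence, 40.8% of the 5′ ends of the 10 genes fell on the first base of a codon (35.5 to 46.3), against 29.1% on the middle and 30.03% on the last base. For the 9 genes the share on the first base was 40.7% (35.3 to 46.3), and in the other coding genes 34.1% (33.2 to 35.0) fell on the first. Counted over the 280 distinct sequences the share was 37.5% (31.8 to 43.5), and without Ybx2, whose most abundant sequence begins on a first base, it was 38.3% of 295 reads (32.7 to 44.1). Both of these intervals include the share of the other coding genes.

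Other genes of the same stages or functions, not all of them confined to spermatids, were counted in 5 lists. Of 6 genes of late spermatid chromatin, 3 had reads, with 5 in all, and Tnp2 had 15 reads where Tnp1, which encodes the other transition protein, had 3. Of 18 genes of the flagellum and sheath, 12 had reads, 89 in all, with Tcp11 at 39 (19.6 per kb) and Ropn1l at 11, while Akap4, the main protein of the fibrous sheath, had 2. Of 9 glycolysis genes, 8 had reads, 105 in all, led by Hk1 at 62 (16.1 per kb), a hexokinase, and Pgk2 at 25 (15.4 per kb), the testis phosphoglycerate kinase. Per kb, both values were above those of Gapdhs and Odf2, but both lay within the interval of Gapdhs (5.76 to 17.0). The cells that the Hk1 reads came from were not tested. Gapdhs had 15 reads while the somatic gene Gapdh had 0, but Gapdh has many near-identical copies in the genome and reads shared with a copy are not counted under the rule used. The list named for translational control had 11 genes, but it also took in the protein kinase genes Tssk1, Tssk2 and Tssk6. Of the 11, 6 had reads, 51 in all. The kinase genes Tssk6, Tssk2 and Tssk1 had 19, 4 and 1 of these reads, and Pabpc1, which binds poly(A) tails, had 14. The Y-box relatives of Ybx2, Ybx1 and Ybx3, had 4 and 9 reads, and the somatic antizymes Oaz1 and Oaz2 had 0 each. Reads that these genes share with any other gene are left out under the same rule, so these counts do not show absence. Of 10 other spermatid genes, 8 had reads, 93 in all, namely Hspa1l with 35, Gsg1 with 20, Dbil5 with 19, Dnajb3 with 10 and 4 genes with fewer. The median was 55 reads a gene for the 10 spermatid genes, 0.5, 2, 3, 1 and 3 for these 5 lists in the order given, and 0 over all 21951 coding genes. The lists, like the 10 genes, were chosen with earlier results of these data known.

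Markers of other cells also had reads. Of 18 genes of the epididymal epithelium, 15 had reads, 220 in all with a median of 4.5, led by Clu at 69, Gpx5 at 48, Adam7 at 30, Crisp1 at 24 and Lcn5 at 10. Per kb, Clu (38.1) and Gpx5 (28.7) were at the level of Prm1 and Tnp2. All 8 genes of stroma and muscle had reads, 116 in all with a median of 7.5, with Col1a2 at 36, Col1a1 at 30, Col3a1 at 24 and Myh11 at 10. Of 8 blood genes only Lyz2 had reads, 2 in number, and Ptprc was at 0. The 4 globin genes were also at 0, but they are near-identical in pairs, so shared reads are not counted. The 3 spermatocyte markers (Sycp1, Sycp3, Spo11) and the 4 of Sertoli and Leydig cells (Sox9, Amh, Star, Cyp17a1) were all at 0, where a count of 0 is taken to allow up to 3 reads and its Poisson interval reaches 3.69. The epididymal fragments had a median of 35 nt, with 60.5% at 33 to 45 nt (53.7 to 67.0). Of them, 30.6% lay in the 3′ UTR (24.5 to 37.2), which makes up 30.4% of the length. The 5′ UTR held 5.09% (2.57 to 8.93) and makes up 6.94% of the length. In the 9 spermatid genes the 5′ UTR makes up 22.4% of the length, or 16.8% on their most-read transcripts. Of the shares of reads, neither interval overlaps with that of the 9 spermatid genes. T opened 19.5% of the epididymal fragments (14.5 to 25.4), where the transcripts held 24.5% T. In RNA from a whole sperm preparation, fewer cells of a type and less RNA per cell cannot be told apart, and the part of these other cells in the results above was not tested.

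In the rat library the same rule, applied with mouse transcripts, found 211 reads of 164 sequences, or 1.41% of the 14930 rat reads unique to 1 mouse coding gene. Only fragments identical between the species can be found in this way, so the numbers describe conserved stretches and give no level in the rat. Odf1 had 73 reads, Oaz3 52, Odf2 38, Ybx2 31 and Spem2 11, Prm1, Smcp and Gapdhs had 2 each, and Prm2 and Tnp2 had 0. Of the 38 Odf2 reads, 27 lay outside the 3188-nt transcript, in other Odf2 transcripts. A total of 15 sequences were identical between the libraries, namely 7 of Ybx2, 3 of Odf1, 3 of Oaz3 and 2 of Spem2. Of the 31 rat Ybx2 reads, 17 ended at the base corresponding to mouse nt 627. These 17 were of 7 sequences, and the base is the end of the 4 Ybx2 sequences shown above. A rat read that runs past a base differing from the mouse is lost, which limits where the kept reads can end. How many ends are shared for that reason was not tested. Counting every position, 28 of the 31 rat Ybx2 reads ended at a base that also ended a mouse read, as did 25 of 52 for Oaz3, 10 of 73 for Odf1 and 10 of 11 for Spem2. Of the 11 placed Odf2 reads and the 2 reads each of Prm1, Smcp and Gapdhs, 0 did. The 11 rat Spem2 reads all lay in the 5′ UTR and the earliest began at nt 11.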

How the data were processed

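Per the file headers, the deposited tables give for each distinct sequence its count of reads, the strand, the database entry assigned by the authors and the mismatches, of which at most 2 were allowed. The submitters' processing notes name Bowtie 0.12.7 and, without a role, the builds mm9 and rn5. No source used here describes the adapter trimming. The counts were used as deposited, and sequences of minus-strand matches were reverse-complemented. A date stood in place of the identifier and count in 2535 mouse rows, which were left out, with 5 sequences of the 10 genes among them. Shares are of the listed reads.

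Sequences were searched by exact string match in all GENCODE M21 transcripts (GRCm38) with Python 3.11.15, numpy 2.4.6, pandas 2.3.3 and scipy 1.17.1, and plotted with matplotlib 3.10.9. The search was tested on simulated reads. No genome sequence was searched, and coordinates come from this match and not from the deposited tables. A read was placed on the transcript with the longest coding sequence of its gene, and belongs to the region with most of its bases. The coordinates that introduce each gene are those of this transcript. Positions count from 1 at the transcript's first base.

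All 10 genes are named, with the 3 most abundant sequences and the most used 5′ end of each considered. Of the 5 lists of related genes and the 5 cell type lists, genes with at least 10 unique reads are named. The further list genes named in the text were picked after their values were seen. The genes and lists were chosen with earlier results of these data known. Sequences are printed only up to 30 nt and from coding sequence. With 1 library per species no test was made.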

Additional observations from a re-analysis of the deposited data

Results flagged for a closer look

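Rows annotated as something other than mRNA were outside the counts above. In them, 4 reads of 2 sequences matched a spermatid transcript uniquely and in sense. All 4 matched Spem2.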

How the results depend on the processing

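The choices for the 10 genes were changed one at a time, and 61 of 91 recomputed values stayed within 1.5 times the read number or, for the other values, within the counting interval. The read number of 620 was 442 by sequence, 458 from 24 nt up, 490 without Spem2, 499 with exact deposited matches and 557 without the most abundant sequence of each gene, all outside its counting interval (572 to 671), and 124 with sequences of at least 5 reads only. The share in the coding sequence, 56.8%, was 68.3% with each sequence counted once, 70.6% from 24 nt up, 65.0% with up to 1 mismatch, 71.1% without Spem2, 15.3% with at least 5 reads and 71.6% with exact deposited matches only. The share in the 3′ UTR, 4.61%, was 0% with at least 5 reads and 8.59% on the transcripts with the most reads. The share beginning with T, 20.6%, was, in the same order as for the coding sequence, 14.7%, 13.3%, 12.97%, 12.4%, 41.9% and 13.03%, and 17.1% without the most abundant sequence of each gene. The share at 26 to 32 nt, 14.4%, was 18.6% by sequence, 19.4% from 24 nt up, 18.2% without Spem2, 4.03% with at least 5 reads and 17.8% with exact deposited matches. The median of 33 nt was 21 nt with at least 5 reads and 35 nt under the other 5 of those choices. The share in sense was 100% with at least 5 reads. The largest share of a gene, 20.97% (Spem2), was 84.7% (Spem2) with at least 5 reads, and Prm2 led with 24.5% from 24 nt up, 23.98% by sequence, 20.8% with up to 1 mismatch, 20.6% without the most abundant sequences and 23.6% with exact deposited matches. The limit of 24 nt, the exact deposited matches and the choice without Spem2 leave out all 121 reads of the Spem2 5′ stretch. With at least 5 reads, 84.7% of the 124 reads kept were of Spem2. The cause of the changes under the remaining choices was not tested. The choices on dated rows, on lengths up to 45 nt, on exact deposited matches and on rat rows of any annotation were added after seeing the data. With the month of a dated row read as its count, the 10 genes had 666 reads. No paired analysis was possible because there is 1 library per species.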
